A study of Mus musculus with 10 samples.

Results

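The genes described are 8 members of the Sox family of transcription factors: Sox2, Sox3 and Sox21 of SoxB, Sox4, Sox11 and Sox12 of SoxC, and Sox8 and Sox10 of SoxE. They were chosen with earlier results of these data known. Sox1 and Sox14 of SoxB and Sox9 of SoxE are not among them. Their rows were read by Ensembl identifier from the 56750 features of the count table, and all 8 were present and passed the filter on low counts. The samples were sarcomas of 2 mouse genotypes, profiled by bulk RNA-seq. There were 3 dFLEx tumors (170019, 170024 and 170025) of genotype dFLEx CDS +/-, in which an HA-tagged CIC::DUX4 construct at Rosa26 is read from the CAG promoter once both Cre and FLP have acted, and 2 KP tumors (3800 and 3802) of genotype KRASloxP-STOP-loxP-G12D; p53fl/fl. Per the study's methods, dFLEx tumors followed electroporation of CAG-driven Cre and FLPE plasmids into hind limb muscle of young adult mice. Which cells took up both plasmids and recombined was not given. The study used animals of both sexes. How Cre reached the KP tumors, the age of the KP mice and the sex of each mouse were not given in the sources used here. The groups therefore differ in oncogene, recombinases and p53 genotype together, and what each of these contributes cannot be told apart.

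Sox proteins bind the minor groove of DNA through an HMG box, whose core site is AACAAT, and bend it. SoxB1 factors (Sox2 and Sox3 here) hold progenitors of the nervous system undifferentiated, and Sox2 does so also in pluripotent cells together with POU factors, whereas Sox21 is a SoxB2 repressor that counteracts them. SoxC factors are activators found in progenitors of neurons and mesenchyme, and SoxE factors act in the neural crest, where Sox10 specifies Schwann cells and melanocytes. CIC, the DNA-binding partner in the fusion, binds an octamer of its own (TGAATGAA and close variants) and normally represses its targets, which the fusion activates.

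RNA of each tumor had been divided into duplicates, and 9 libraries with 20503474 to 46302223 counts were analysed (6 of dFLEx, 3 of KP). Tumor 3802 contributed 1 library. The CIC_DUX4 feature, which checks the labels, stood at 89.2 to 412 CPM (counts per library, brought to 1 common size) in the dFLEx libraries and at 0 counts in both libraries of 3800, which allows up to 0.103 and 0.0732 CPM, while the library of 3802 held 6 counts (0.293 CPM). Tumor 3802 also stood apart in its background: 1193 olfactory receptor genes, silent in most tissues, gave 0.123 CPM per kilobase of exon there against 0.00284 to 0.0192 in the other 4 tumors. Levels below are CPM scaled by TMM on the summed counts of a tumor, or FPKM (the same per kilobase of exon) where genes are compared with each other. In bulk tumors fewer cells of a type and less RNA per cell cannot be told apart.

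Sox3 was the SoxB gene with the largest difference. It was read at 33.2 CPM in 170019, 69.0 CPM in 170024 and 33.5 CPM in 170025, and at 0.0806 CPM in 3800 and 0.0813 CPM in 3802. The dFLEx libraries held 625 to 1991 Sox3 counts each, and the KP libraries held 4, 2 and 2. The groups did not overlap, and the lowest dFLEx tumor (170019) stood 409-fold above the highest KP tumor. The 95% counting interval of 113 to 3378 reflects 2 counts in 3802. It is too narrow, because mates of a fragment were counted singly and taken as independent. The edgeR quasi-likelihood test on tumor sums gave a log2 fold change of 9.09 (SE 0.97, 95% interval 6.86 to 11.3) with a Benjamini-Hochberg adjusted p of 0.0335, so Sox3 rose in dFLEx tumors. Sox3 was the only 1 of the 8 genes called by this test, which called 45 of 24743 tested genes (0.182%). Its call was lost when tumor 170019 (adjusted p = 0.144, edgeR) or 170024 (0.118) was left out, and in limma-voom on the libraries (0.0910). Without 170019 or 170024 the edgeR test called 0 of all tested genes. The call was also lost without 3800, a fit with 1 KP tumor. Without any 1 tumor its log2 fold change stayed between 8.66 and 9.25. Correction for GC content and length in every tumor lowered it to 7.45 with the call kept (adjusted p = 0.0242, edgeR), beside a GC content of 66.4% that put Sox3 at percentile 99.8 of tested protein-coding genes.

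**Figure D1:**
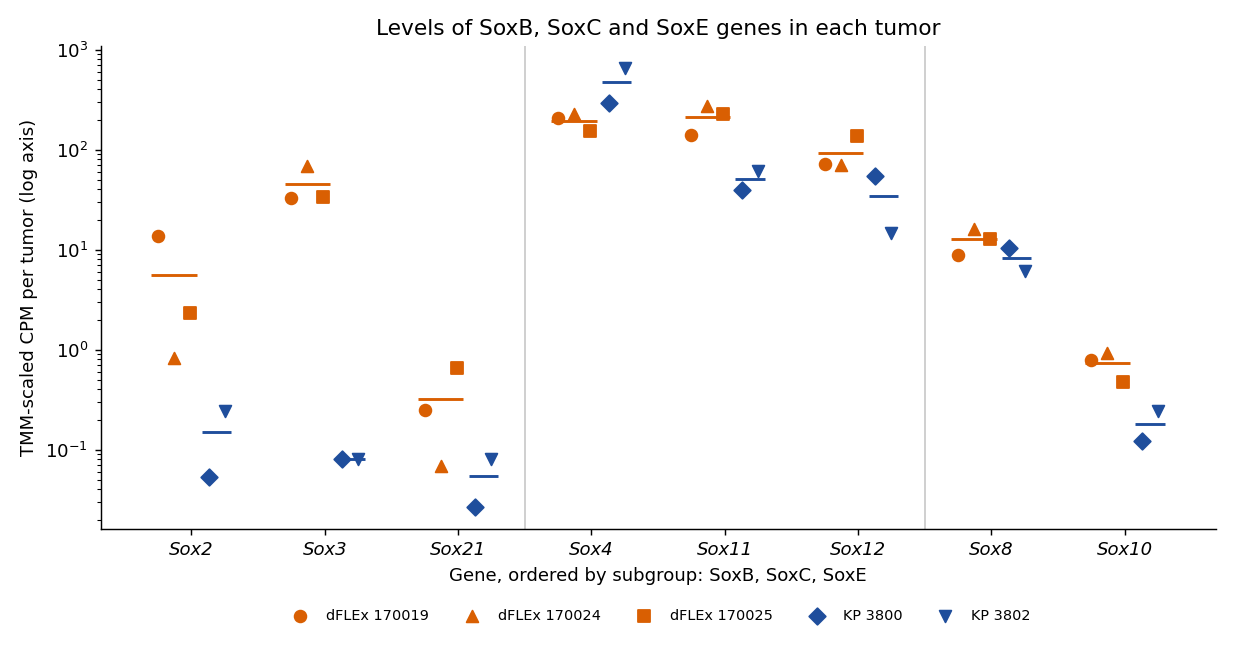
Levels of the 8 genes in each of the 5 tumors, as TMM-scaled CPM on a log axis, with orange symbols for dFLEx, blue symbols for KP and a horizontal line at each group mean. Sox3 lies between 33.2 and 69.0 CPM in the dFLEx tumors and near 0.08 CPM in both KP tumors, while Sox4 is the gene whose KP tumors both lie above all dFLEx tumors.

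Sox3 is a gene with a single exon record of 2065 bases on the minus strand of chromosome X (GRCm39, chrX:59934972-59937036), and its exon is shared with no other annotated gene. The 250 bases before the deposited 5′ end of Sox3, of Sox2 and of the SoxC genes Sox11 and Sox4 are shown because Sox3 was called, Sox2 and Sox11 had the other unadjusted p-values under 0.05, and Sox4 is the gene set against Sox11 below. Capitals mark exact matches on either strand to 4 searched motifs: the CIC octamer (TGAATGAA, TGAATGGA, TCAATGAA or TCAATGGA), the SOX core (AACAAT), the GC box (GGGCGG) and the CCAAT box (CCAAT), the last added after the sequences had been read. The sequences run 5′ to 3′ in the direction of transcription.
Sox3 (chrX:59937037-59937286, minus strand): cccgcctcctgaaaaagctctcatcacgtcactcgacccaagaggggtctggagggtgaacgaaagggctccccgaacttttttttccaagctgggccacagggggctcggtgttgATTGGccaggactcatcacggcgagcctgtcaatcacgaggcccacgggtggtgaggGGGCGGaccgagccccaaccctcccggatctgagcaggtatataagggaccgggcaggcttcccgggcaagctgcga
Sox2 (chr3:34704304-34704553, plus strand): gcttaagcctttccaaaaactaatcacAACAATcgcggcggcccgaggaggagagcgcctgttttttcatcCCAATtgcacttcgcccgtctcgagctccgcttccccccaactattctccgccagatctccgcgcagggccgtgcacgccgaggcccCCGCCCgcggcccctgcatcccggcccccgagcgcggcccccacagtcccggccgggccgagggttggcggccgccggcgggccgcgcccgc
Sox11 (chr12:27392574-27392823, minus strand): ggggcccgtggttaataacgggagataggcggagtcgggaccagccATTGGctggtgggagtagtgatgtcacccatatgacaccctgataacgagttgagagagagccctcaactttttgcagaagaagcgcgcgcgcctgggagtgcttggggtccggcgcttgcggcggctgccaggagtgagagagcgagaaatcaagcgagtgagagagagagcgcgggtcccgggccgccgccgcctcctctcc
Sox4 (chr13:29137697-29137946, minus strand): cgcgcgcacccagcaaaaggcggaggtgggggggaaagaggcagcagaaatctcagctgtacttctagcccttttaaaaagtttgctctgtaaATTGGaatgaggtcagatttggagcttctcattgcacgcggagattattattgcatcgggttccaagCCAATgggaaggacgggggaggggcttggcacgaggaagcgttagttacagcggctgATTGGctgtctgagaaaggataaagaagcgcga

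None of the 8 windows of 250 bases held a CIC octamer, which 2.80% of 21617 protein-coding promoters of that length hold. Over 2000 bases the octamer stood in front of Sox4 (580 bases before the start) and Sox12 (1667 bases), against 29.4% of promoters of that length, so neither Sox3 nor Sox2 held 1 there. The Sox3 window held a CCAAT box on the reverse strand 134 bases before the start and a GC box at 77 bases. CCAAT boxes stood in 5 of 8 windows (Sox2, Sox3, Sox4, Sox11 and Sox12; 36.3% of promoters), with 3 of them in the Sox4 window, and GC boxes also in 5 of 8 (Sox2, Sox3, Sox12, Sox8 and Sox10; 39.3%). Sox2 alone held the SOX core, 223 bases before the start (9.22% of promoters). These are matches of letters, not measured sites.

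Of the 8 genes Sox2 was the most uneven among dFLEx tumors. Its levels were 13.6 CPM in 170019, 0.832 CPM in 170024 and 2.34 CPM in 170025 (range 16.4-fold), against 0.0537 CPM in 3800 and 0.244 CPM in 3802. The duplicates of 170019 gave 318 and 230 counts, those of 170024 gave 34 and 14, and those of 170025 gave 110 and 76, so the order of the dFLEx tumors was the same in both libraries. The 6 counts of 3802 lay near the 5.21 counts that its olfactory receptor rate would give a gene of this length, and the 4 counts of 3800 stood against 1.14. The groups did not overlap, but the lowest dFLEx tumor exceeded the highest KP tumor by 3.41-fold only. The 95% counting interval was 1.46 to 9.76, which takes mates as independent counts and is too narrow. The log2 fold change of 5.34 (SE 1.57, 95% interval 1.70 to 8.98) had an unadjusted p of 0.00966 and an adjusted p of 0.251 with edgeR. Leaving out 170019 lowered the difference to 3.37, leaving out 3802 raised it to 6.67, and subtracting the receptor background raised it to 7.03. DESeq2 on the same tumor sums called Sox2 (adjusted p = 0.000564), as did edgeR with no filter on low counts (adjusted p = 0.000892).

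Sox2 (chr3:34704554-34706610, plus strand) lies inside the long noncoding gene Sox2ot without sharing exonic bases, and counting ignored strand. Sox2ot stood at 0.945 CPM in 170019, 0.347 CPM in 170024, 0.0126 CPM in 170025, 0.121 CPM in 3800 and 5.89 CPM in 3802. It was thus highest in 3802, where Sox2 was near the background. That tumor had the high receptor background, and what this would give Sox2ot was not computed. Outside 3802, Sox2ot and Sox2 were both highest in 170019, but 170025 was lowest in Sox2ot and not in Sox2.

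Sox21, the SoxB2 repressor, was barely read in any tumor. It had 10 counts in 170019, 4 in 170024, 52 in 170025 and 2 in each KP tumor, so only 170025 (0.655 CPM) stood far above the 0.887 counts given by the receptor rate. The groups overlapped, and the log2 fold change of 2.62 (95% interval -1.68 to 6.92) had an adjusted p of 0.788 with edgeR. Sox21 shares 713 exonic bases (18.8%) with the antisense gene Sox21os1, and reads there were left out of both.

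Summed per length, Sox2, Sox3 and Sox21 (without Sox1, also a SoxB gene) reached 22.8 FPKM in 170019, 33.8 FPKM in 170024 and 17.5 FPKM in 170025, against 0.0722 FPKM in 3800 and 0.179 FPKM in 3802. Sox3 made up 70.6%, 98.8% and 92.5% of the sum in the dFLEx tumors, and Sox2 supplied 29.1%, 1.196% and 6.497%. Most SoxB RNA in each dFLEx tumor was that of Sox3.

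**Figure D2:**
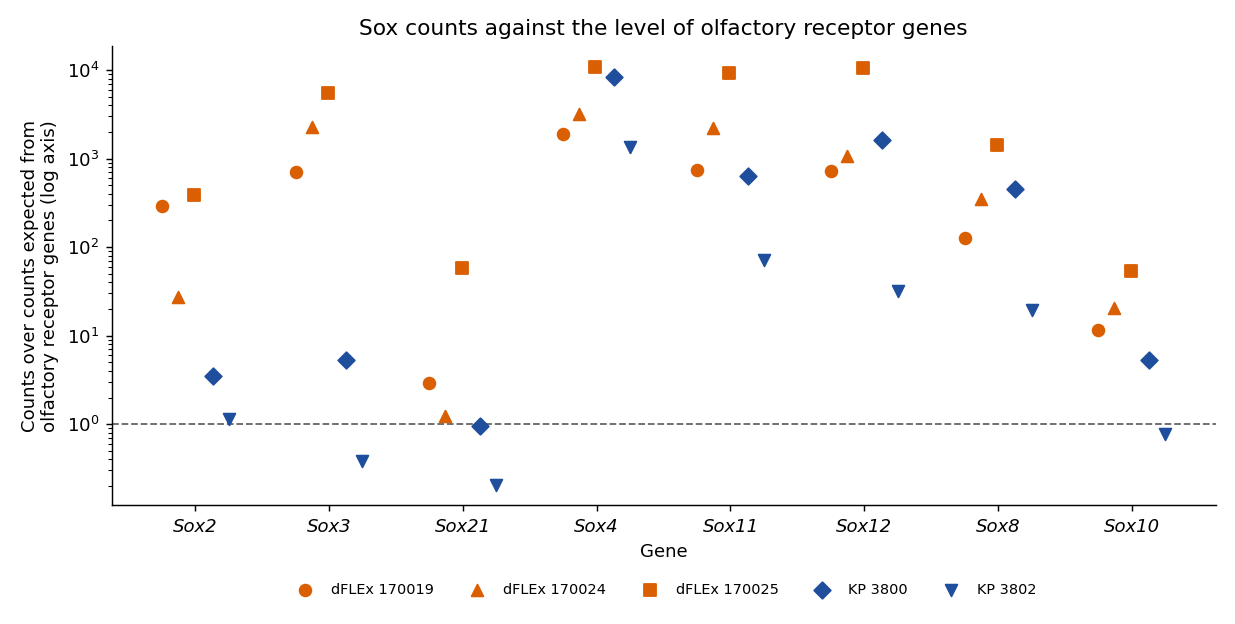
Counts of each gene in each tumor divided by the counts expected for its length from the olfactory receptor genes of that tumor, on a log axis, with a dashed line at 1. Sox2, Sox3, Sox21 and Sox10 of tumor 3802 lie at or near the line or below it, and Sox4, Sox11, Sox12 and Sox8 lie above it in all 5 tumors.

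POU factors, which pair with SoxB1 proteins on shared DNA sites, were read beside them. Of 7 listed genes 6 were tested and 0 passed the edgeR threshold, with 2 at an unadjusted p under 0.05 and 2 called by DESeq2 on tumor sums. For this and all later lists, 10.6% of all tested genes had an unadjusted p under 0.05 (edgeR). DESeq2 on tumor sums called 3.13% of those it tested. Pou3f3, a class III POU factor of neural progenitors, stood at 54.9, 97.2 and 168 CPM in the dFLEx tumors and at 0.161 and 5.04 CPM in the KP tumors (adjusted p = 0.211, edgeR). Pou3f1 of the same class stood at 55.8, 18.8 and 13.99 CPM against 0.269 and 2.93 CPM (adjusted p = 0.251, edgeR), highest in 170019, which was also highest in Sox2. Pou5f1, the partner of Sox2 in pluripotent cells, did not pass the filter and stayed under 1 CPM in every tumor, highest in 3802. The 10 listed pluripotency genes gave 6 tested genes and 0 calls by edgeR or by DESeq2 on tumor sums, with 0 at an unadjusted p under 0.05, and Klf4, which many tissues express, supplied most of their summed 15.2 to 36.0 CPM in dFLEx and 34.2 to 51.5 CPM in KP tumors.

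Neural progenitor markers did not move as a block with Sox3. Of 7 tested genes 0 passed the edgeR threshold, 3 were higher and 1 lower at an unadjusted p under 0.05, and DESeq2 on tumor sums called 4. Nestin (Nes), an intermediate filament of progenitors and of many sarcomas, was lower in dFLEx tumors, at 50.3, 124 and 80.3 CPM against 583 and 635 CPM (adjusted p = 0.117, edgeR). Lhx2, a LIM homeobox factor, stood at 3.96, 11.2 and 36.1 CPM against 3.12 and 0.528 CPM, with the dFLEx tumors above both KP tumors (adjusted p = 0.388, edgeR). Msi1, an RNA-binding protein of progenitors, stood at 7.96, 5.20 and 3.40 CPM against 1.37 and 4.67 CPM, with overlapping groups. Fabp7, a fatty acid binding protein of radial glia, stood at 7.84, 4.98 and 0.983 CPM against 0.188 and 0.0813 CPM (adjusted p = 0.168, edgeR). Olig2 was at 0 counts in 170019 and both KP tumors, at 0.694 CPM in 170024 and at 0.101 CPM in 170025, and did not pass the filter.

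The SoxC genes held the first 3 places among the 8 per length in 4 of 5 tumors, and in 170024 Sox3 took the second place. Sox4, which acts in many progenitors and is common in tumors, ranked first of the 8 in all 5 tumors per length. Its levels were 205, 228 and 153 CPM in the dFLEx tumors and 294 and 657 CPM in 3800 and 3802, with no overlap. The log2 fold change was -1.28 (SE 0.57, 95% interval -2.60 to 0.03) with an adjusted p of 0.491 by edgeR, and it shrank to -0.57 without 3802. Sox4 was the only 1 of the 8 whose dFLEx tumors all lay below both KP tumors, a pattern shown by 11.7% of tested genes.

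Sox11 lay on the other side. This SoxC factor, active in embryonic neurons and mesenchyme, stood at 139, 271 and 229 CPM in the dFLEx tumors and at 39.7 and 61.2 CPM in the KP tumors. Tumor 170019, the lowest of the dFLEx group, exceeded 3802 by 2.28-fold, and the log2 fold change was 2.08 (SE 0.62, 95% interval 0.66 to 3.50), with an unadjusted p of 0.00989 and an adjusted p of 0.254 by edgeR. Leaving out each tumor in turn moved it between 1.83 and 2.44. Sox11 is 8311 bases long in 1 exon record on the minus strand (chr12:27384263-27392573) and shares bases with no other annotated gene.

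Sox12, the third SoxC gene and the weakest activator of them, stood at 72.3, 70.0 and 137 CPM against 53.9 and 14.7 CPM. All dFLEx tumors lay above both KP tumors, though 170024 exceeded 3800 by 1.30-fold only, and the log2 fold change of 1.44 (SE 0.75, 95% interval -0.29 to 3.16) had an adjusted p of 0.608 by edgeR. It was 0.80 without 3802, 2.83 without 3800 and 0.75 after correction for GC content and length.

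The make-up of SoxC RNA did not overlap between tumor types, whereas its amount did, and neither Sox4 nor Sox11 passed the adjusted threshold alone. Summed FPKM of the 3 genes was 75.8, 95.8 and 90.1 in the dFLEx tumors and 78.3 and 148 in the KP tumors. Sox4 supplied 56.5%, 49.6% and 35.4% of that sum in the dFLEx tumors and 78.4% and 92.8% in the KP tumors. The FPKM ratio of Sox11 to Sox4, which no scaling of libraries can change, was 0.392, 0.687 and 0.862 in the dFLEx tumors. It was 0.0778 and 0.0537 in the KP tumors, so the lowest dFLEx ratio exceeded both KP ratios. This separation had to follow from the levels given above, because the groups did not overlap in either gene and the directions were opposite. The share of Sox4 had to separate too, since Sox12 went the way of Sox11. Neither is a result apart from those of the single genes. With 3 tumors against 2 an exact two-sided permutation test cannot give a p below 0.2, and none was run on these combinations of genes.

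**Figure D3:**
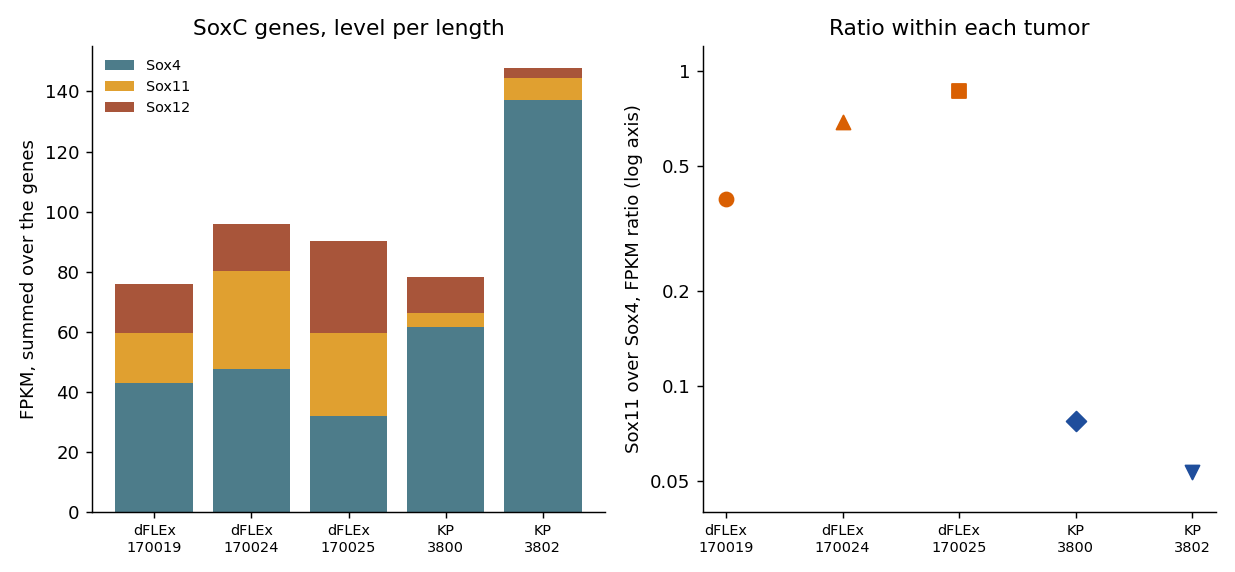
Left, FPKM of Sox4, Sox11 and Sox12 stacked for each tumor; right, the ratio of Sox11 to Sox4 FPKM in each tumor on a log axis. Sox4 fills 78.4% and 92.8% of the KP bars, and the ratio lies between 0.392 and 0.862 in the dFLEx tumors and at 0.0778 and 0.0537 in the KP tumors. The separation of the ratio follows from the levels of the single genes.

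None of the listed SoxC targets or neuronal markers was higher in dFLEx tumors at an unadjusted p under 0.05 (edgeR), although Sox11 was. Sox4, also a SoxC factor, was lower there, and what either gene does to these targets was not tested. Of the 6 SoxC target genes listed 0 passed the edgeR threshold, 2 were lower in dFLEx tumors at an unadjusted p under 0.05 and DESeq2 on tumor sums called 2. Tead2, a TEAD factor under SoxC control in the embryo, stood at 106, 156 and 136 CPM against 87.0 and 121 CPM, with overlapping groups. Like Sox11, it was highest in 170024 and next highest in 170025. Mex3a, an RNA-binding protein, stood at 29.6, 56.0 and 92.6 CPM against 74.0 and 53.5 CPM, also overlapping. Cdk6, a cell cycle kinase, was at 5.55, 7.28 and 10.2 CPM against 170 and 59.98 CPM (adjusted p = 0.0877, edgeR). All 8 neuronal markers had a log2 fold change below 0 and 0 passed the edgeR threshold, with 2 lower at an unadjusted p under 0.05 and 2 called by DESeq2 on tumor sums. Over all tested genes 43.7% had a log2 fold change above 0. In 2 of 8, Tubb3 and Stmn2, all dFLEx tumors lay below both KP tumors, where 11.7% of tested genes did. Syp stood at 1.82, 4.63 and 2.27 CPM against 0.537 CPM in 3800 and 5.65 CPM in 3802, the tumor with the high background. Map2 stood at 5.67, 1.66 and 9.80 CPM against 104 CPM in 3800 and 5.24 CPM in 3802. Stmn2, a tubulin-binding protein of growing axons, stood at 4.43, 5.57 and 2.48 CPM in the dFLEx tumors and at 279 and 61.7 CPM in the KP tumors (adjusted p = 0.0744, edgeR).

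Sox8 and Sox10 were the less abundant of the SoxE genes. Sox8, which overlaps in function with Sox9 and Sox10, stood at 8.86, 16.2 and 12.9 CPM in the dFLEx tumors and at 10.4 and 6.18 CPM in the KP tumors, and the groups overlapped. Its log2 fold change was 0.61 (SE 0.62, 95% interval -0.83 to 2.05, adjusted p = 0.879 by edgeR). Sox8 shares 329 exonic bases (10.6%) with the long noncoding gene Cerox1, whose reads there were left out of both genes.

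Sox10, the neural crest factor, had 32, 54 and 38 counts in the dFLEx tumors and 9 and 6 in the KP tumors, or 0.796, 0.936 and 0.479 CPM against 0.121 and 0.244 CPM. The groups did not overlap, but the 6 counts of 3802 lay below the 7.72 its receptor rate would give. The log2 fold change was 2.03 (SE 1.25, 95% interval -0.87 to 4.92, adjusted p = 0.720 by edgeR), and it was 3.68 with the receptor background subtracted and 0.97 after correction for GC content and length. Per length Sox10 reached 0.261, 0.307 and 0.157 FPKM in the dFLEx tumors, where Sox3 reached 16.1, 33.4 and 16.2 FPKM.

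Schwann cell and melanocyte markers, the cells in which Sox10 is highest, were low beside it with exceptions. Of 12 Schwann markers 0 passed the edgeR threshold, with 4 higher and 1 lower at an unadjusted p under 0.05, and DESeq2 on tumor sums called 3. Ngfr, the p75 neurotrophin receptor of crest cells and of other mesenchyme, stood at 121, 201 and 603 CPM against 3.44 and 1.14 CPM (adjusted p = 0.0784, edgeR) and supplied most of the list's sum in dFLEx tumors only, 186, 316 and 694 CPM against 44.2 and 35.3 CPM. The crest factor Foxd3 was at most 0.382 CPM in any tumor. Of the melanocyte markers 7 were tested and 0 passed the edgeR threshold, with 1 higher at an unadjusted p under 0.05 and 0 called by DESeq2 on tumor sums. Tyr, the enzyme that makes melanin, was at 0 in all dFLEx tumors, and Kit and Ednrb, receptors that other cells also carry, supplied most of the list's 28.3 to 135 CPM in dFLEx tumors.

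**Figure D4:**
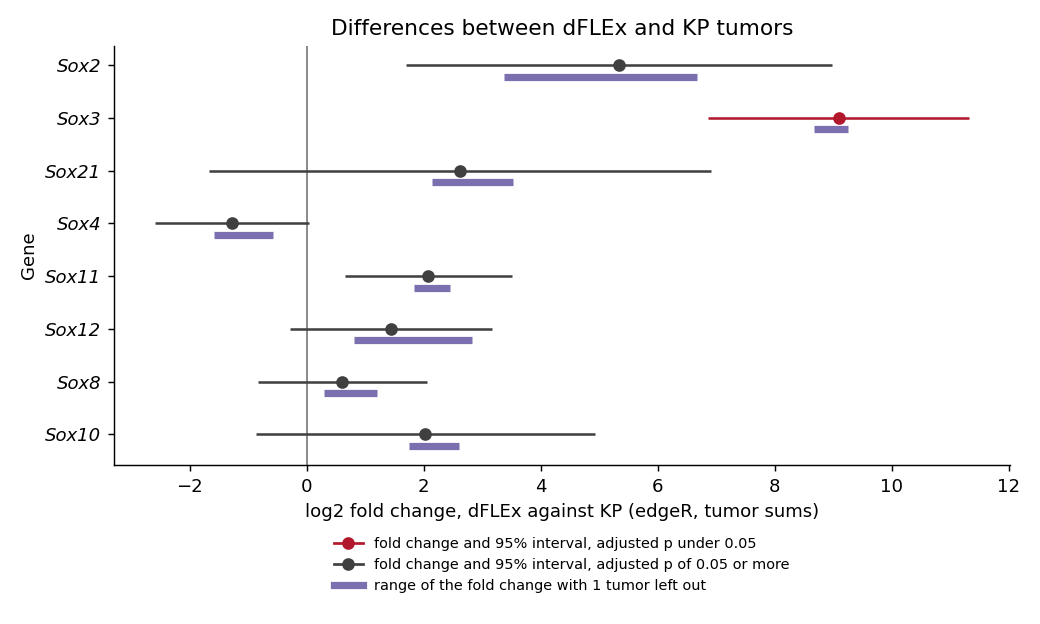
Log2 fold changes of the 8 genes, dFLEx against KP, with 95% intervals (edgeR on tumor sums) and, as violet bars, the range with 1 tumor left out. Sox3 at 9.09 is the only gene with an adjusted p under 0.05, and the intervals of Sox2 and Sox11 also exclude 0 before adjustment.

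Across the 8 genes, 7 had a log2 fold change above 0 and the median was 2.05, beside a median of -0.18 and 43.7% above 0 over all tested genes. An unadjusted p under 0.05 was reached by 3 of the 8 (Sox2, Sox3 and Sox11), where 10.6% of tested genes reached it. In 5 of the 8 (Sox2, Sox3, Sox11, Sox12 and Sox10) the 3 dFLEx tumors were each higher than both KP tumors, as in 13.7% of tested genes. The 8 were chosen with earlier results of these data known and leave out Sox1, Sox14 and Sox9. These counts therefore do not describe the whole SoxB and SoxE subgroups. The genes also share a build: 5 of 8 have 1 exon record, as 2.52% of tested protein-coding genes do, and their median GC content was 56.4% against 49.3%.

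Duplicates of a tumor were compared as a measure of technical spread, and some tumors of 1 group lay closer to each other than duplicates did. The log2 difference between duplicates was at most 0.28 for Sox3, 0.28 for Sox4 and 0.38 for Sox11, and it reached 1.01 for Sox2 in 170024, where the libraries held 34 and 14 counts.

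The remaining 11 Sox genes were read for comparison. Of them 9 were tested and 0 passed the edgeR threshold, with 4 higher and 1 lower in dFLEx tumors at an unadjusted p under 0.05, and their median log2 fold change was 2.03, close to that of the 8. DESeq2 on tumor sums called 1 of them, Sox18. Per length Sox18, a SoxF factor of endothelium, exceeded every one of the 8 in 2 dFLEx tumors, with 29.5, 49.7 and 44.3 FPKM in 170019, 170024 and 170025 and 7.93 and 6.92 FPKM in 3800 and 3802 (log2 fold change 2.47, adjusted p = 0.177 by edgeR). Sox14 had no count in any tumor.

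**Figure D5:**
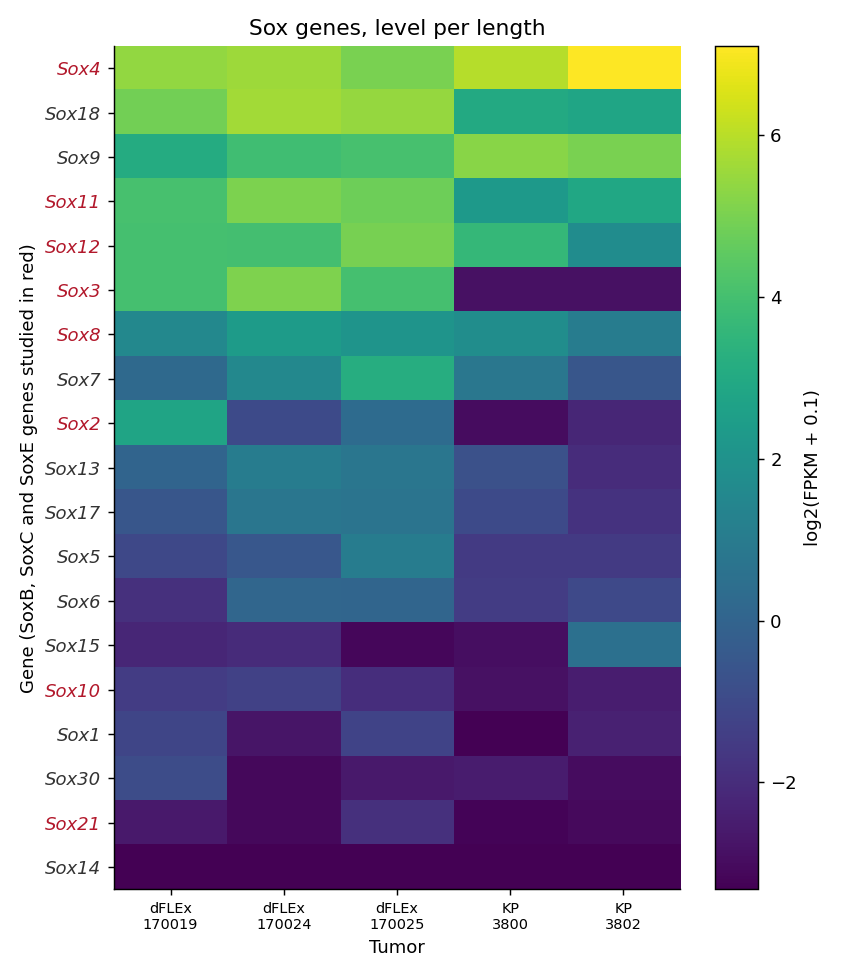
Levels per length of 19 Sox genes in the 5 tumors, as log2(FPKM + 0.1), with the genes ordered by their mean and the 8 SoxB, SoxC and SoxE genes named in red. Sox4 is highest on average, Sox18 exceeds it in 170024 and 170025, and Sox3 is near the bottom of the scale in both KP tumors.

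Markers of other cells in the tumors differed alongside these genes, and their part in the Sox results was not tested. Markers of endothelium, which expresses Sox18, summed to 326, 388 and 566 CPM in the dFLEx tumors and 185 and 207 CPM in the KP tumors, and 0 of 8 passed the edgeR threshold (1 higher at an unadjusted p under 0.05, and 1 called by DESeq2 on tumor sums). Muscle genes summed to 9853, 36443 and 9263 CPM against 1336 and 4822 CPM, highest in 170024, with 0 of 8 passing by edgeR, 6 higher at an unadjusted p under 0.05 and 2 called by DESeq2 on tumor sums. Macrophage markers summed to 611, 566 and 476 CPM against 918 and 3532 CPM, with 0 of 8 passing by edgeR, 3 lower at an unadjusted p under 0.05 and 1 called by DESeq2 on tumor sums. Fibroblast markers summed to 1669, 2992 and 5660 CPM against 842 and 1163 CPM, with 0 of 6 passing by edgeR, 3 higher at an unadjusted p under 0.05 and 0 called by DESeq2 on tumor sums. Epithelial markers stayed at 2.37 to 12.3 CPM in sum in dFLEx tumors and at 20.8 and 30.2 CPM in KP tumors, with 0 of 8 passing by edgeR, 1 lower at an unadjusted p under 0.05 and 1 called by DESeq2 on tumor sums.

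Genes whose profile over the 5 tumors was most like that of a Sox gene were found by the root mean square difference of centred log2(CPM + 0.5) values. Nearest to Sox3 were Acan, the core protein of cartilage aggrecan (0.396), Cckar, a cholecystokinin receptor (0.454), and Tcf15, a factor of paraxial mesoderm (0.525), and 2 genes lay within 0.5. Cckar stood at 33.2, 39.6 and 43.2 CPM against 0.0269 and 0.325 CPM. Nearest to Sox2 was Vax2, a homeobox factor of the ventral eye (0.189), at 8.61, 0.520 and 2.04 CPM against 0 and 0.163 CPM, and 5 genes lay within 0.5 of Sox2, Gm11368 (0.440) and Tmem132c (0.445) next among them. For the other genes the measure set little apart: 326 genes lay within 0.5 of Sox11 (Abca4, Acaa1b and Ephb1 first), 608 of Sox12 (Lins1, Ap4m1 and Tubgcp2), 4250 of Sox4 (Sp8, 9330175E14Rik and Ccdc88b) and 4288 of Sox8 (Gm9484, Plekhh3 and Zfp839). The likeness is a description over 5 tumors, in which all genes come from the same libraries.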

How the data were processed

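Bulk RNA-seq of 5 tumors was used. The authors trimmed reads with Trimmomatic (0.39), aligned them with STAR (2.7.10a) to GRCm39 with an added CIC::DUX4 contig, and deposited raw counts per gene from featureCounts (Subread 2.0.3). Per the file headers, strand was ignored and mates were counted singly. Reads with several alignments or over several genes were not counted. Counting intervals take each mate as an independent count, so they understate the counting error of fragments. They hold no spread between tumors. Of 10 labelled libraries 9 were used, and duplicate R2 of 3802 was not analysed here. Symbols came from GENCODE M39.

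The tumor was the replicate. Counts of duplicates were summed, filtered with filterByExpr, scaled by TMM and compared with edgeR (4.0.16) quasi-likelihood tests. The p-values were adjusted by Benjamini-Hochberg over every tested gene (threshold 0.05). The code was also run on simulated counts. Their spread was set and not estimated from these tumors, so that run does not give the error rate here. Alternatives used DESeq2 (1.42.0), limma-voom (3.58.1), other scalings and filters, GC and length correction, background subtraction and each tumor left out. Named genes followed a written rule: the 8 genes, other Sox genes past the threshold or above all 8 per length in a tumor, and up to 4 genes a list by threshold, then mean CPM; Pou5f1, Olig2, Foxd3 and Tyr were added for their levels near 0. The members and lists were chosen with earlier results of these data known.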

Additional observations from a re-analysis of the deposited data

How the results depend on the processing

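The direction of the 8 genes was the same under every alternative that gave a value, and counts of calls moved. Among the 8, DESeq2 on tumor sums called 2, the 9 libraries as independent samples gave 3 (edgeR) and 6 (DESeq2), no filter gave 2, and limma-voom gave 0 (4 at an unadjusted p under 0.05; Sox3 adjusted p = 0.0910). Leaving out each tumor in turn gave 0 to 1. Among the other Sox genes the count of 0 became 1 (DESeq2 on tumor sums), 4 and 5 (libraries as independent samples, edgeR and DESeq2) and 1 (limma-voom). Over all genes the count of 45 (0.182% of those tested) became 1388 (3.13%; DESeq2 on tumor sums), 3344 and 4815 (17.1% and 11.1%; libraries, edgeR and DESeq2), 543 (2.78%; limma-voom), 880 (1.98%; no filter), 80 (mean of at least 1 CPM) and 173 (GC and length trend removed), and 0 to 414 with a tumor left out, the most without 3802. Treating duplicates as independent samples counts each tumor more than once.

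With the duplicate number as a replicate block on the 9 libraries (edgeR), 2 of the 8, 4 other Sox genes and 2476 genes in all (12.7%) were called. The differences between duplicates correlated at -0.0116 to 0.0718 between tumors, so the samples share only a number.

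Library totals shifted the median log2 fold change of all genes by -0.30, the upper quartile by -0.21 and GC and length correction by -0.23. GC and length correction lowered Sox10 from 2.03 to 0.97, Sox12 from 1.44 to 0.75 and Sox8 from 0.61 to 0.094, whereas background subtraction raised Sox10 to 3.68, Sox2 from 5.34 to 7.03 and Sox3 from 9.09 to 9.93. The 2 KP tumors, and 3802 with 1 library, limit every comparison.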

Other observations

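Sox9, the third SoxE gene and the master factor of cartilage, was looked at with its partners Sox5 and Sox6 after their values had been seen. Sox9 was lower in dFLEx tumors, at 34.5, 61.3 and 68.4 CPM against 155 and 132 CPM in the KP tumors, without passing the threshold (log2 fold change -1.39, adjusted p = 0.422 by edgeR). Sox5 stood at 5.37, 8.91 and 28.4 CPM against 3.43 and 3.45 CPM (adjusted p = 0.459, edgeR), and Sox6 at 2.61, 14.8 and 14.1 CPM against 3.88 and 5.85 CPM (adjusted p = 0.812, edgeR).

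Between the groups, cartilage matrix genes lay on the other side of Sox9. Of 7 tested genes 1 passed the edgeR threshold, 4 were higher in dFLEx tumors at an unadjusted p under 0.05, and DESeq2 on tumor sums called 4. Acan rose in dFLEx tumors, at 65.0, 94.8 and 82.4 CPM against 0.228 and 0.203 CPM (log2 fold change 8.52, adjusted p = 0.0248 by edgeR). Its call was lost when 170019, 170024 or 3800 was left out. Without 170019 or 170024 the test called 0 of all tested genes. Col2a1, the main collagen of cartilage, stood at 282, 528 and 1636 CPM against 0.618 and 1.87 CPM (adjusted p = 0.0521, edgeR). The groups did not overlap in Sox9, Acan or Col2a1. Within the dFLEx group 170019 was lowest in Sox9, Acan and Col2a1, and 170025 was highest in Sox9 and Col2a1. The listed cartilage genes shared no order there. Col9a1 stood at 165, 144 and 641 CPM, lowest in 170024. Comp stood at 201, 220 and 82.4 CPM, lowest in 170025, where Sox9 was highest.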
